A study of Mus musculus with 21 samples.

Results

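Genes of the unfolded protein response and of protein folding in the endoplasmic reticulum (ER) were followed in sorted mouse pancreatic β-cells. The cells were labelled as Ldb1 knockout (Ldb1-KO), Isl1 knockout (Isl1-KO) or wild type (WT). LDB1 is an adaptor protein that holds LIM-domain transcription factors together on DNA, and its partner ISL1 is such a factor, with a homeodomain, that islet cells need. The gene set was a list of 37 symbols, chosen with earlier results of these data known. It covers ER chaperones, oxidative folding, ER-associated degradation (ERAD), and the PERK, IRE1 and ATF6 arms of the response. The symbols were looked up in the expression table, where 36 of the 37 had a row among 21913 genes. All 36 lay above the filter on low values and were among the 13501 genes tested. Ero1l, which encodes an ER oxidase, was not analysed here.

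The 18 RNA libraries fell into 8 Ldb1-KO, 5 Isl1-KO and 5 WT libraries of total RNA. All 3 groups came from male mice of a mixed SV/129 and C57Bl/6 strain that carried the genotype Rosa26LsLeYFP/ LsLeYFP; MIP-CreERTm. This is a YFP lineage reporter plus a tamoxifen-switched Cre recombinase that is driven by a mouse insulin promoter, so all groups, WT included, carried Cre and received tamoxifen. The knockout groups also carried Ldb1L/L or Isl1L/L. Tamoxifen was given in rounds of 5 gavages from postnatal day 28. The dose was 150 µg per g body weight, with a second round from day 35, in Ldb1-KO and WT mice, and 100 µg per g with no second round in Isl1-KO mice. Ldb1-KO and WT cells were sorted at day 56 and Isl1-KO cells at day 49, so that genotype, age and dose cannot be told apart wherever the Isl1-KO group enters a comparison. No label states whether each library had its own mice, and the p-values measure only the spread between these libraries.

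The unfolded protein response senses misfolded protein in the ER lumen and adjusts the folding capacity of the cell. Its sensors are 3 membrane proteins. PERK, encoded by Eif2ak3, phosphorylates the translation factor eIF2α, which slows protein synthesis and favours translation of the transcription factor ATF4. IRE1α, encoded by Ern1, splices the mRNA of Xbp1, and ATF6 is cut in the Golgi to release a transcription factor. XBP1 and ATF6 act on chaperone and ERAD genes, whereas ATF4 acts on amino acid metabolism and on stress genes such as Ddit3. β-Cells fold large amounts of proinsulin and depend on these pathways, and loss of PERK or of WFS1 is known to cause diabetes.

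The promoters of these genes are shown because several hold the published target elements of ATF6, XBP1 and ATF4. RefSeq promoter sequences (GRCm38.p6, 250 bases before to 50 bases after each gene's start) were found for 32 of the 37 genes and for 27025 mouse genes in all. The ER stress element (ERSE, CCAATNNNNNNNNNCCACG, searched on both strands) was present in 9 of the 32 member promoters, and in 0.14% of all promoters of the same length. The related element ERSE-II (ATTGG, any base, then CCACG) was present in 2 member promoters (Dnajb11 and Herpud1) and in 0.04% of all. A C/EBP-ATF element (TTGCATCA), of the kind that ATF4 is known to bind, was present in 2 member promoters (Chac1 and Herpud1) and in 1.03% of all. The XBP1-type element UPRE (TGACGTGG) was present in none of the 32 and in 0.71% of all. None of the 4 motifs was required to be free of overlap with another. Capitals in the sequences mark the matched elements, in either orientation, and each sequence is written 5′ to 3′ along the gene's own strand.
Hspa5: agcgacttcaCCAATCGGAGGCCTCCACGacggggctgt
Hsp90b1: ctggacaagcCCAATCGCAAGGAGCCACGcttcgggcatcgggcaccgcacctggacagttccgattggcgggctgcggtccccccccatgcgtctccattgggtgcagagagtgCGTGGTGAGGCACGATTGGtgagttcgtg
Derl3: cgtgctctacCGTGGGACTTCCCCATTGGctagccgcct
Syvn1: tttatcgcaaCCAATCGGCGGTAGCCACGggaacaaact
Creld2: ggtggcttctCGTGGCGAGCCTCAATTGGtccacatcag
Herpud1: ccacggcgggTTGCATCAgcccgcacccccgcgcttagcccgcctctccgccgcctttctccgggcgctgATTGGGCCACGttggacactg
Chac1: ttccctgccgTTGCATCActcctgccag

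These stretches lie at chr2:34772015-34772053 (plus strand, Hspa5), chr10:86705523-86705666 (minus strand, Hsp90b1), chr10:75893232-75893270 (plus strand, Derl3), chr19:6046522-6046560 (plus strand, Syvn1), chr15:88819510-88819548 (plus strand, Creld2), chr8:94386307-94386397 (plus strand, Herpud1) and chr2:119351039-119351066 (plus strand, Chac1), all upstream of the annotated start. The other members with an ERSE were Calr, Canx, Dnajc3 and Pdia6. Hsp90b1 held 2 copies, Herpud1 held both an ERSE-II and a C/EBP-ATF element, and Chac1 held the C/EBP-ATF element alone.

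Every level below is a log2 value as deposited, taken to be the log2 of a quantile-normalized value with 1 added. They are not divided by gene length, so a level is compared only with the same gene's level in another library. The normalized value of a single read step, which is smaller in deeper libraries, ranged from 0.714 to 1.44 in Ldb1-KO, from 0.971 to 1.45 in Isl1-KO and from 0.715 to 1.22 in WT libraries. Ldb1-KO replicates 1, 3 and 4 were the shallower ones of their group. The deeper libraries were the other 5 of Ldb1-KO, 1 of Isl1-KO (replicate 3) and 2 of WT (replicates 1 and 5). Ldb1 itself fell by 1.11 (SE 0.18, limma adjusted p 4.35e-05) in Ldb1-KO against WT and was lower in 8 of 8 libraries. Isl1 differed by -0.22 (SE 0.17, adjusted p 0.431) in Isl1-KO against WT and rose by 1.01 (SE 0.16, adjusted p 2.78e-05) in Ldb1-KO. A whole-gene value does not check a deletion of part of the gene. The β-cell marker list (10 of 10 genes in the table) had mean levels of 9.48 to 10.8 in Ldb1-KO, 10.3 to 11.7 in Isl1-KO and 12.3 to 12.7 in WT libraries, and Ins1 and Ins2 were present in all. The α-cell list (4 of 5 genes) had mean levels of 6.39 to 7.84 in Ldb1-KO, 5.81 to 7.18 in Isl1-KO and 4.82 to 5.81 in WT libraries. Irx1, one of its transcription factors, was at 0 in 14 of 18 libraries. Acinar markers (19 of 20 genes) had mean levels of 2.29 to 6.23 in Ldb1-KO and 1.72 to 4.91 in Isl1-KO libraries. They stood at 9.98 in WT replicate 1 and at 1.69 to 2.25 in the other WT libraries, with Ptf1a at 0 in 17 libraries. Duct markers (8 of 8) ranged from 4.75 to 5.37 in Ldb1-KO, from 4.40 to 5.23 in Isl1-KO and from 3.66 to 4.71 in WT libraries, with Krt19 and Sox9 at 0 in 8 libraries each. The list of δ-, PP- and ε-cell hormones and factors had mean levels of 4.90 to 6.49 in Ldb1-KO, 3.83 to 5.76 in Isl1-KO and 4.39 to 5.14 in WT libraries, and the endothelial, immune and mesenchymal lists stayed at or below 2.68 in every library. Beyond leaving out WT replicate 1, the part of these cell types in the results was not tested.

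In Ldb1-KO against WT β-cells, 15 of the 36 genes fell and 5 rose at a limma adjusted p under 0.05, and 16 did not pass. Among all genes tested, 11.0% fell and 10.6% rose in that comparison. The falls took in the ATF4 arm (Atf4, Ddit3, Trib3, Asns and Chac1), 5 of the 10 ERAD genes (Sel1l, Edem1, Derl1, Derl2 and Derl3), 3 chaperone genes (Dnajb11, Hyou1 and Manf), and Atf6 and Wfs1. The rises were those of Hspa5, Pdia3, Os9, Ppp1r15a and Ern1. The median log2 difference was -0.25 over the 36 genes and -0.01 over all genes tested. All Ldb1-KO libraries lay below all WT libraries for 10 of the 36 genes, against 5.89% of all genes, and above them for 1, against 4.89%. Direction and call were kept for 12 of the 15 falls under all 24 alternative settings tried, and for Ern1 alone among the rises. Fewer cells of a type and less RNA per cell cannot be told apart in such pooled cells.

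**Figure D1:**
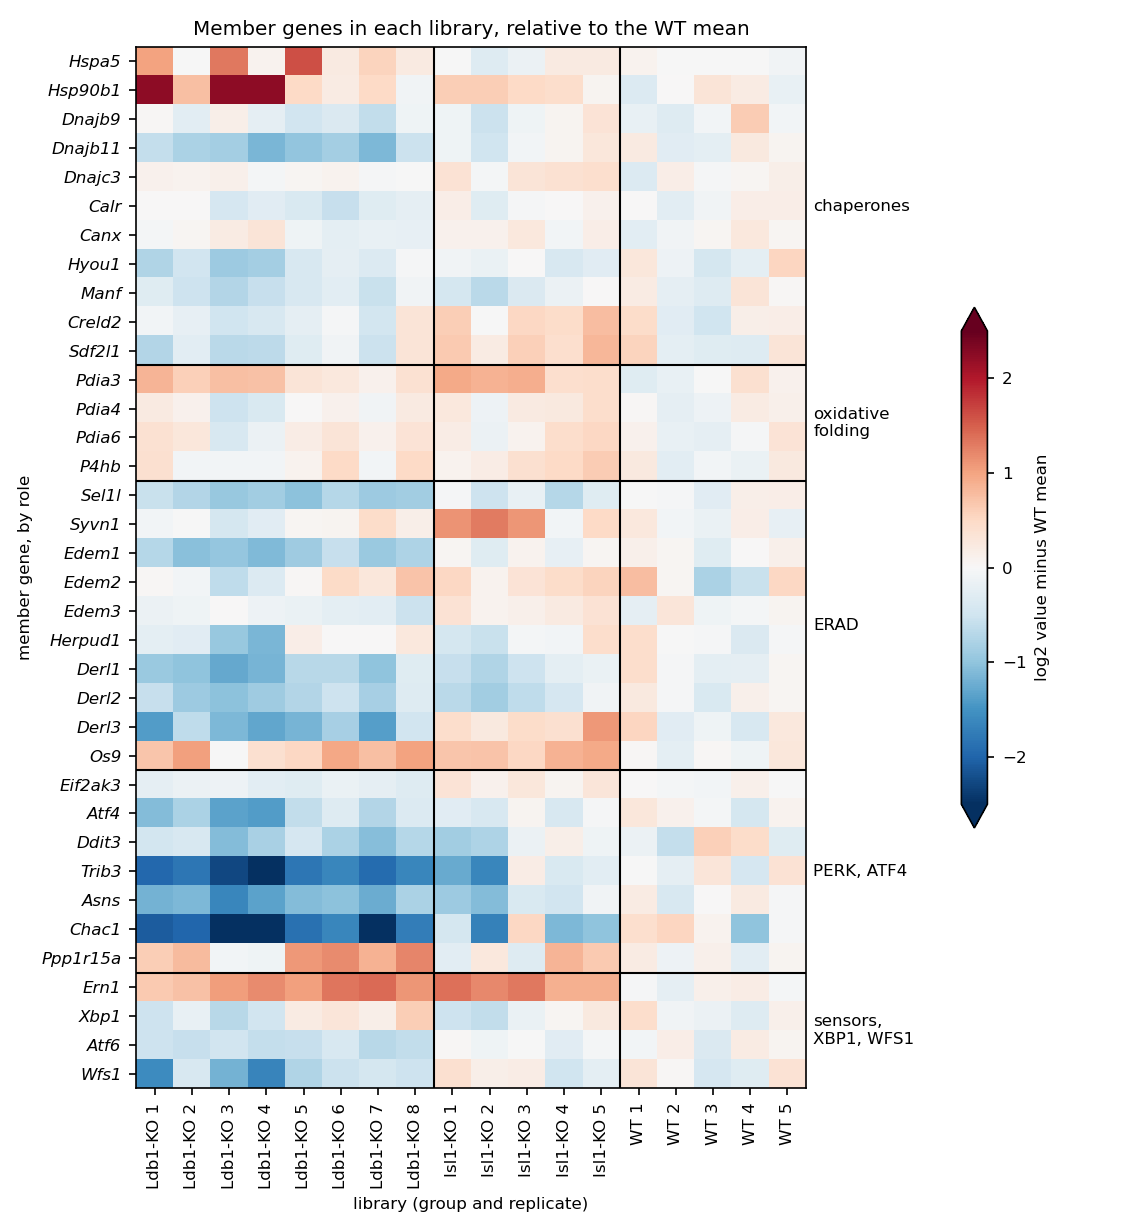
Level of each of the 36 genes (rows, grouped by role) in each of the 18 libraries (columns), as the log2 value minus the WT mean of that gene, with blue below and red above WT. The Trib3, Asns and Chac1 rows are blue in all 8 Ldb1-KO libraries and Ern1 is red in all 13 knockout libraries, whereas Hsp90b1 is darkest in Ldb1-KO replicates 1, 3 and 4.

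The PERK and ATF4 arm held the largest falls. Chac1, a glutathione-degrading enzyme and target of ATF4, had values of 3.20, 4.19 and 4.60 in Ldb1-KO libraries (lowest, median, highest), 5.79, 4.53, 6.74, 5.10 and 5.22 in the 5 Isl1-KO libraries, and 6.64, 6.76, 6.32, 5.21 and 6.19 in the 5 WT libraries. Every Ldb1-KO library lay below every WT library. Chac1 was lower by 4.73-fold (log2 difference -2.24, SE 0.33, adjusted p 1.89e-05). Trib3, a pseudokinase induced by ATF4, had values of 1.00, 2.94 and 3.19 in Ldb1-KO libraries, 3.56, 3.18, 5.00, 4.44 and 4.55 in the Isl1-KO libraries, and 4.81, 4.59, 5.11, 4.39 and 5.18 in WT libraries. Ldb1-KO and WT did not overlap, and the fall was 4.31-fold (log2 difference -2.11, SE 0.35, adjusted p 8.48e-05). Both folds are of values plus 1, which understates the change of genes at such low levels.

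Asns, asparagine synthetase, is a standard reporter of ATF4 activity. It stood at 8.32, 8.80 and 9.16 in Ldb1-KO libraries (lowest, median, highest), at 9.03, 8.86, 9.56, 9.46 and 9.86 in Isl1-KO libraries, and at 10.15, 9.54, 9.95, 10.18 and 9.91 in WT libraries. The Ldb1-KO libraries all lay below WT, with a log2 difference of -1.18 (SE 0.16, adjusted p 5.15e-06). Atf4 mRNA stood at 9.61, 10.25 and 10.69 in Ldb1-KO, at 10.74, 10.62, 11.09, 10.62 and 10.99 in Isl1-KO, and at 11.30, 11.13, 10.97, 10.57 and 11.11 in WT libraries. The Ldb1-KO and WT ranges overlapped through WT replicate 4 alone, and Atf4 fell by 0.83 (SE 0.17, adjusted p 0.000996). Its level was lower in the shallower Ldb1-KO libraries (mean 9.74 over 3) than in the deeper ones (mean 10.46 over 5). Without those 3 libraries the difference was -0.56 (adjusted p 0.00767). The mRNA level does not measure ATF4 protein, which is set by translation.

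Ddit3, which encodes the apoptosis-linked factor CHOP, fell by 0.72 (SE 0.20, adjusted p 0.0128). It stood at 6.42, 6.75 and 7.11 in Ldb1-KO (lowest, median, highest), at 6.64, 6.74, 7.36, 7.65 and 7.39 in Isl1-KO, and at 7.35, 6.91, 8.09, 7.97 and 7.19 in WT libraries, so that its groups overlapped. Its call was lost without WT replicate 3 (-0.57, adjusted p 0.0537) or WT replicate 4 (-0.60, adjusted p 0.0513), and over the deeper libraries alone (-0.45, adjusted p 0.128). Eif2ak3, the PERK gene, did not pass (log2 difference -0.22, SE 0.09, adjusted p 0.0762), although its Ldb1-KO values, with a median of 8.90, all lay below its WT values of 9.06 to 9.26. Ppp1r15a encodes GADD34, the phosphatase subunit that reverses PERK signalling. It was the only gene of this arm to rise in Ldb1-KO, by 0.70 (SE 0.23, adjusted p 0.0352). Its values were 8.66, 8.84, 9.14, 9.23, 8.91 and 9.28 in 6 of the Ldb1-KO libraries, but 7.98 and 7.95 in Ldb1-KO replicates 3 and 4, against 8.25, 7.93, 8.17, 7.78 and 8.12 in WT. The call of Ppp1r15a was lost when any of Ldb1-KO replicates 2, 5, 6, 7 or 8 or WT replicates 2, 4 or 5 was left out, at differences of 0.62 to 0.71. Over the deeper libraries alone, which hold only replicates 1 and 5 of WT, the difference was 0.89, and over the shallower ones alone 0.23 (adjusted p 0.621).

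**Figure D2:**
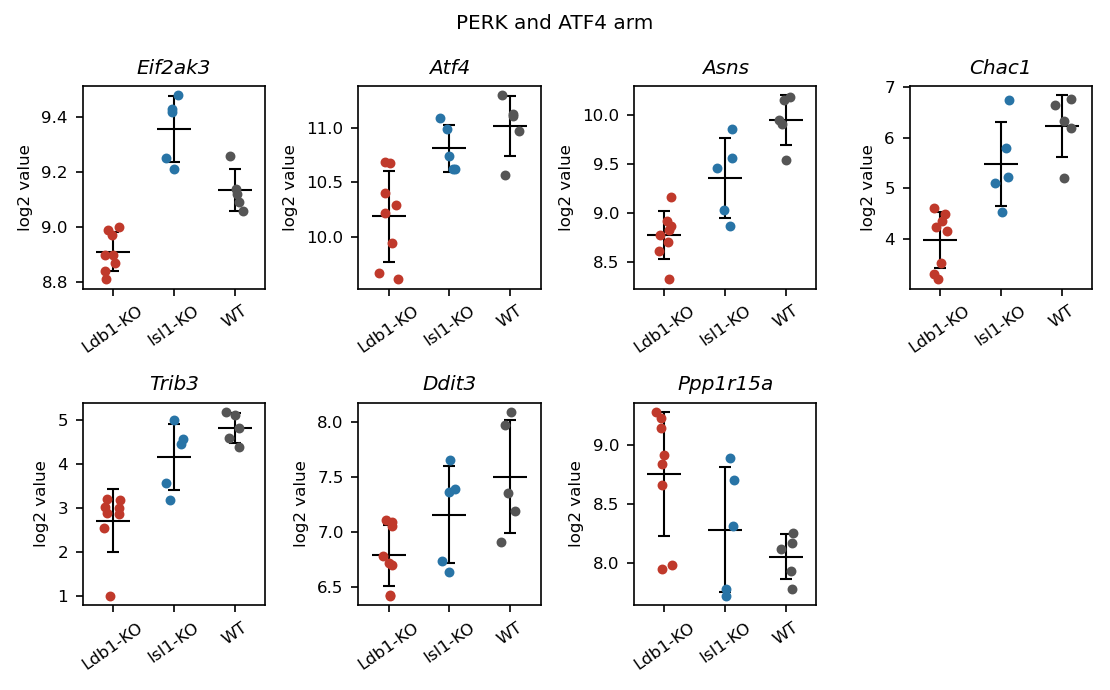
Levels of the 7 genes of the PERK and ATF4 arm, 1 panel a gene, as log2 values (y axes differ and do not start at 0). Points are libraries of the 8 Ldb1-KO, 5 Isl1-KO and 5 WT samples, and bars give mean and SD; Asns, Chac1 and Trib3 separate Ldb1-KO from WT, and Ppp1r15a is the gene whose mean is highest in Ldb1-KO.

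ERAD returns misfolded proteins to the cytosol for degradation. Of its 10 genes, 5 (50.0%) fell in Ldb1-KO, 1 (10.0%) rose and 4 did not pass, where 11.0% of all genes tested fell and 10.6% rose. Edem1, a mannosidase-like lectin that marks glycoproteins for disposal, stood at 8.62, 8.82 and 9.15 in Ldb1-KO (lowest, median, highest), at 9.78, 9.43, 9.81, 9.53 and 9.78 in Isl1-KO, and at 9.85, 9.77, 9.43, 9.73 and 9.86 in WT libraries. Every Ldb1-KO library lay below every Isl1-KO and every WT library, and the fall against WT was 0.87 on the log2 scale (SE 0.11, adjusted p 2.84e-06). Sel1l, the scaffold of the ubiquitin ligase complex, stood at 9.68, 9.83 and 10.14 in Ldb1-KO, at 10.66, 10.18, 10.52, 9.98 and 10.40 in Isl1-KO, and at 10.69, 10.66, 10.41, 10.85 and 10.87 in WT libraries. Its Ldb1-KO and WT ranges did not overlap, and it fell by 0.83 (SE 0.12, adjusted p 1.28e-05). Syvn1, the ligase HRD1 that SEL1L holds, differed by -0.01 (SE 0.20, adjusted p 0.968).

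The derlins form part of the channel through which ERAD substrates leave the ER. Derl1 fell by 0.88 (SE 0.15, adjusted p 0.000115), Derl2 by 0.73 (SE 0.14, adjusted p 0.000451) and Derl3 by 1.04 (SE 0.20, adjusted p 0.00046) in Ldb1-KO. Derl3 stood at 4.58, 4.82 and 5.48 in Ldb1-KO (lowest, median, highest), at 6.40, 6.21, 6.43, 6.37 and 7.06 in Isl1-KO, and at 6.50, 5.68, 5.87, 5.56 and 6.23 in WT libraries. WT replicate 1, the library with the highest acinar mean, had the highest WT value of Derl1, Derl2 and Derl3. Without it, Derl1 fell by 0.77 (adjusted p 0.000712), Derl2 by 0.67 (adjusted p 0.00243) and Derl3 by 0.91 (adjusted p 0.00301). Os9, a lectin that hands glycoproteins to SEL1L, went the other way. It stood at 11.03, 11.75 and 12.05 in Ldb1-KO, at 11.73, 11.75, 11.54, 11.91 and 11.97 in Isl1-KO, and at 11.07, 10.78, 11.07, 10.92 and 11.32 in WT libraries. Ldb1-KO replicate 3 alone lay within the WT range, and Os9 rose by 0.67 (SE 0.15, adjusted p 0.00176). It missed the threshold in the authors' deposited table (0.49, FDR 0.0557) and over the shallower libraries alone (0.47, adjusted p 0.0919). The remaining genes did not pass: Edem2 differed by 0.06, Edem3 by -0.20 and Herpud1, an ERAD adaptor, by -0.28 (adjusted p 0.888, 0.215 and 0.408). Herpud1 ranged from 8.87 in Ldb1-KO replicate 4 to 10.28 in Ldb1-KO replicate 8, a wider spread than its 9.65 to 10.46 in WT.

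The sensor genes Ern1 and Atf6 moved in opposite directions in Ldb1-KO. Ern1 rose by 1.06 (2.08-fold, SE 0.13, adjusted p 1.74e-06). It stood at 9.96, 10.37 and 10.71 in Ldb1-KO (lowest, median, highest), at 10.67, 10.50, 10.63, 10.19 and 10.19 in Isl1-KO, and at 9.27, 9.07, 9.43, 9.48 and 9.26 in WT libraries. Every knockout library, of either kind, lay above every WT library. Atf6 fell by 0.56 (SE 0.10, adjusted p 0.000254). It stood at 9.49, 9.62 and 9.79 in Ldb1-KO, at 10.23, 10.08, 10.19, 9.91 and 10.15 in Isl1-KO, and at 10.12, 10.35, 9.84, 10.39 and 10.26 in WT libraries, with every Ldb1-KO library below every other library. Wfs1 encodes wolframin, an ER membrane protein mutated in Wolfram syndrome. It fell by 0.88 (SE 0.22, adjusted p 0.00513), with values of 6.71, 7.71 and 7.95 in Ldb1-KO libraries, 8.76, 8.50, 8.54, 7.86 and 8.11 in Isl1-KO, and 8.68, 8.39, 7.94, 8.05 and 8.72 in WT libraries. The 3 lowest Wfs1 values, 6.79, 7.17 and 6.71, were those of the shallower Ldb1-KO replicates 1, 3 and 4, and without them the difference was -0.53 (adjusted p 0.0359). Xbp1 did not pass (-0.07, SE 0.20, adjusted p 0.834). Its gene-level value does not separate spliced from unspliced mRNA, so IRE1 activity was not measured.

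**Figure D3:**
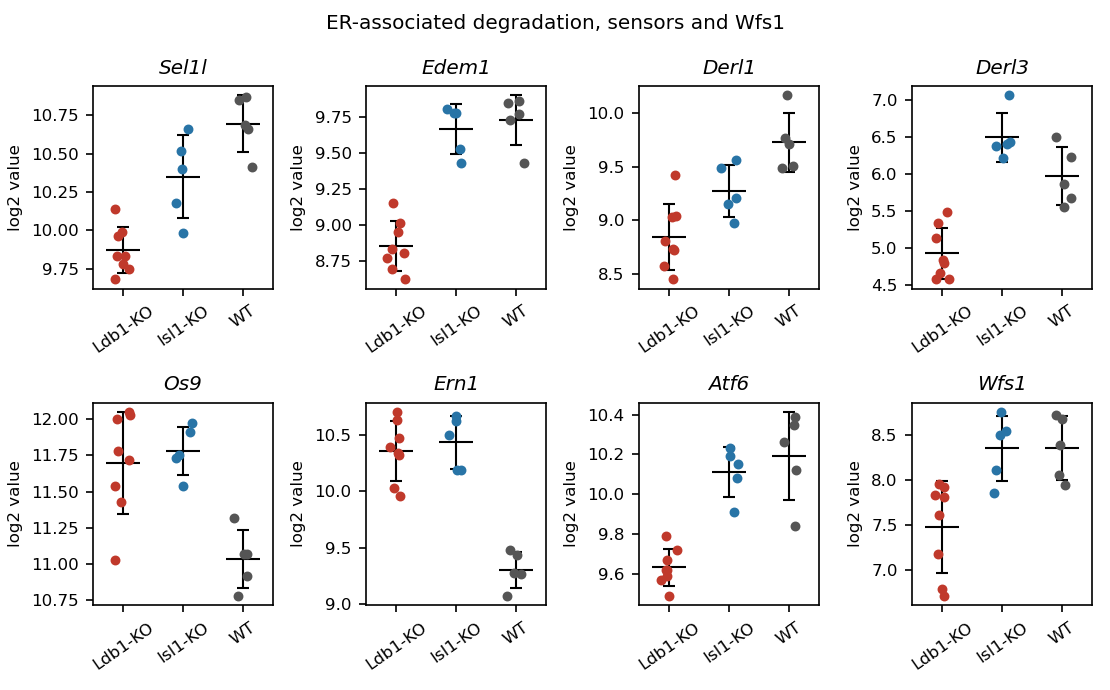
Levels of 5 ERAD genes, the sensor genes Ern1 and Atf6, and Wfs1, as log2 values in each library (y axes differ and do not start at 0), with mean and SD bars. Sel1l, Edem1, Derl1, Derl3 and Atf6 lie lower in the 8 Ldb1-KO libraries than in WT. Os9 and Ern1 lie higher in both knockouts than in WT, apart from Os9 in Ldb1-KO replicate 3. The Isl1-KO and WT points overlap in every panel but those of Os9 and Ern1.

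Among the 11 chaperone and cochaperone genes, 3 (27.3%) fell in Ldb1-KO, 1 (9.09%) rose and 7 did not pass. The shares over all genes tested were 11.0% lower and 10.6% higher. Dnajb11, an ER partner of the chaperone BiP, fell by 0.86 (SE 0.14, adjusted p 5.09e-05). It stood at 9.03, 9.32 and 9.63 in Ldb1-KO (lowest, median, highest), at 10.07, 9.68, 10.11, 10.23 and 10.46 in Isl1-KO, and at 10.40, 9.88, 9.92, 10.41 and 10.24 in WT libraries, so that Ldb1-KO lay below both other groups. Hyou1, a large ATP-dependent chaperone, fell by 0.50 (SE 0.16, adjusted p 0.0261), and Manf, a secreted factor that is known to protect β-cells, by 0.43 (SE 0.14, adjusted p 0.0225). Their Ldb1-KO and WT ranges overlapped. Leaving out WT replicate 1 ended both calls, with Hyou1 at -0.43 (adjusted p 0.0868) and Manf at -0.38 (adjusted p 0.0704). Leaving out WT replicate 5 also ended both (Hyou1 -0.37, adjusted p 0.121, and Manf -0.42, adjusted p 0.0523). Hyou1 was lost too without Ldb1-KO replicate 4 (-0.45, adjusted p 0.0524), and Manf without WT replicate 4 (-0.35, adjusted p 0.0844). Dnajb9, Dnajc3, Calr, Canx, Creld2 and Sdf2l1 did not pass, at differences of -0.37 to 0.04.

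Hspa5 and Hsp90b1 encode BiP and GRP94, the main chaperones of the ER lumen, and their rows need a closer reading because the deposited scale is coarse at its top. Among the highest values, neighbouring steps lay up to 1.02 apart, and Hsp90b1 had exactly 15.99, the value at rank 5, in each of the shallower Ldb1-KO replicates 1, 3 and 4. In the other 5 Ldb1-KO libraries it stood at 14.50, 14.24, 13.96, 14.24 and 13.66, against 13.40, 13.75, 14.07, 13.96 and 13.57 in WT. The log2 difference over all libraries was 1.07 (SE 0.38, adjusted p 0.0508), which did not pass. Over the deeper libraries alone it was 0.63 (adjusted p 0.0243), over the shallower ones alone 2.06 (adjusted p 1.05e-06), and without Ldb1-KO replicates 1, 3 and 4 it was 0.37. The shallower Ldb1-KO libraries all share the step at 15.99, so the p-value of 1.05e-06 holds no measured spread between them. The authors' deposited table gives 0.46 (FDR 0.0388). Hspa5 stood at 14.21, 14.60 and 15.82 in Ldb1-KO (lowest, median, highest), at 14.21, 13.89, 14.07, 14.43 and 14.43 in Isl1-KO, and at 14.30, 14.21, 14.21, 14.21 and 14.13 in WT libraries. It rose by 0.63 (SE 0.22, adjusted p 0.0442), with its highest values in Ldb1-KO replicates 5, 3 and 1. Its call was lost when any 1 of Ldb1-KO replicates 1, 3, 5 or 7, or any 1 of the 5 WT libraries, was left out, at differences of 0.49 to 0.65. In the authors' deposited table the log2 fold change of Hspa5 is -0.06 (FDR 1), so its direction depends on the processing.

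**Figure D4:**
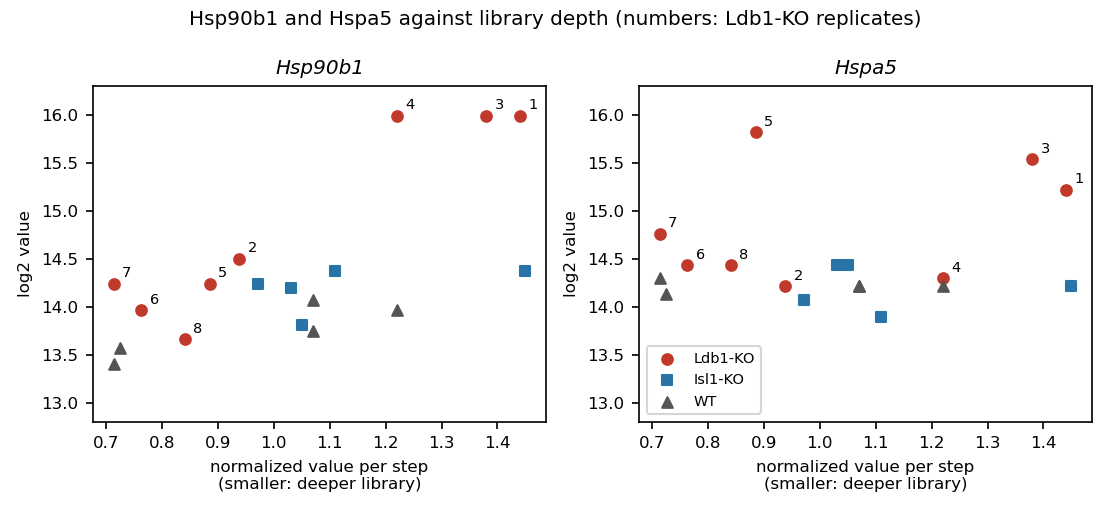
Log2 values of Hsp90b1 and Hspa5 against the normalized value of a single read step in each library, which is smaller in deeper libraries. Red circles are Ldb1-KO (numbered by replicate), blue squares Isl1-KO and grey triangles WT; the 3 Ldb1-KO libraries at 1.22 or above carry the Hsp90b1 value of 15.99, and Hspa5 shows no such step with depth, its highest value being 15.82 in Ldb1-KO replicate 5.

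Among the 4 tested genes of oxidative folding, 0 fell in Ldb1-KO by limma. The count was also 0 at an unadjusted p under 0.05 and in the authors' deposited table. Over all genes tested, 11.0% fell and 10.6% rose, so 0 falls among 4 genes do not show that oxidative folding was spared. The ER oxidase gene Ero1lb, counted in a further list below, fell in Ldb1-KO (log2 difference -2.38, SE 0.22, limma adjusted p 3.53e-08). Of the 27 chaperone and oxidative folding genes in that list, 4 rose and 1, Ero1lb, fell. Pdia3, a disulfide isomerase that works on glycoproteins with calnexin and calreticulin, rose by 0.50 (SE 0.15, adjusted p 0.014) and was above the WT mean in 8 of 8 libraries. It stood at 11.93, 12.31 and 12.67 in Ldb1-KO (lowest, median, highest), at 12.77, 12.70, 12.73, 12.24 and 12.26 in Isl1-KO, and at 11.52, 11.63, 11.82, 12.22 and 11.92 in WT libraries. Its Ldb1-KO call was lost without WT replicate 1, the library with the lowest value (0.43, adjusted p 0.0554). It was also lost without the shallower Ldb1-KO libraries (0.33, adjusted p 0.119), and the authors' deposited table gives 0.28 (FDR 0.335). Pdia4, Pdia6 and P4hb, the gene of the founding member of this isomerase family, differed by -0.04, 0.13 and 0.15 and did not pass. The difference between the arms themselves was not tested.

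In Isl1-KO against WT, 4 of the 36 genes rose (Pdia3, Syvn1, Os9 and Ern1), 2 fell (Derl2 and Asns) and 30 did not pass. Among all genes tested, 7.02% rose and 8.39% fell. The median over the 36 genes was 0.00, against -0.03 over all genes. Both comparisons with WT use the same 5 WT libraries, so their values are given side by side. Ern1 differed from WT by 1.06 in Ldb1-KO and by 1.14 in Isl1-KO (SE 0.15, adjusted p 6.36e-06), Os9 by 0.67 in Ldb1-KO and by 0.75 in Isl1-KO (SE 0.16, adjusted p 0.00278), and Pdia3 by 0.50 in Ldb1-KO and by 0.72 in Isl1-KO (SE 0.16, adjusted p 0.00327). Asns differed by -1.18 in Ldb1-KO and by -0.59 in Isl1-KO (SE 0.18, adjusted p 0.0239), and Derl2 by -0.73 in Ldb1-KO and by -0.53 in Isl1-KO (SE 0.16, adjusted p 0.022). Pdia3, Os9 and Ern1 were above all WT libraries in every Isl1-KO library, 3 of 36 genes against 4.47% of all genes, and none of the 36 was below all of them, against 6.22%.

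The Isl1-KO libraries were not uniform. Pdia3 differed by 0.43 (adjusted p 0.241) with Isl1-KO replicates 1 to 3 left out and by 0.50 (FDR 0.0762) in the authors' deposited table, and Os9 by 0.34 (adjusted p 0.354) over the deeper libraries alone, which hold 1 of Isl1-KO. Syvn1 stood at 6.94, 7.11 and 6.93 in Isl1-KO replicates 1 to 3 and at 5.75 and 6.32 in replicates 4 and 5, against 6.09, 5.74, 5.66, 5.99 and 5.61 in WT. Its rise of 0.79 (SE 0.22, adjusted p 0.017) was lost without replicate 1 (0.71, adjusted p 0.0543) or 2 (0.67, adjusted p 0.0606), and was 0.22 (adjusted p 0.701) with replicates 1 to 3 left out. The falls of Asns and Derl2 were each lost without Isl1-KO replicate 1 (-0.51 and -0.50, adjusted p 0.0763 and 0.058) or 2 (-0.47 and -0.45, adjusted p 0.0854 and 0.0731). With Isl1-KO replicates 1 to 3 left out they were -0.28 and -0.25 (adjusted p 0.483 and 0.53). The calls were also lost without WT replicate 1 (-0.54 and -0.48, adjusted p 0.0621 and 0.0626) or 4 (-0.53 and -0.50, adjusted p 0.0626 and 0.0514). Chac1, Trib3 and Atf4 did not pass in Isl1-KO, at -0.75, -0.67 and -0.20 (adjusted p 0.18, 0.266 and 0.525), and the spread of Chac1 over the 5 Isl1-KO libraries, 4.53 to 6.74, was wider than in WT. Without Isl1-KO replicate 3, the highest library, Chac1 differed by -1.06 (adjusted p 0.0447).

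**Figure D5:**
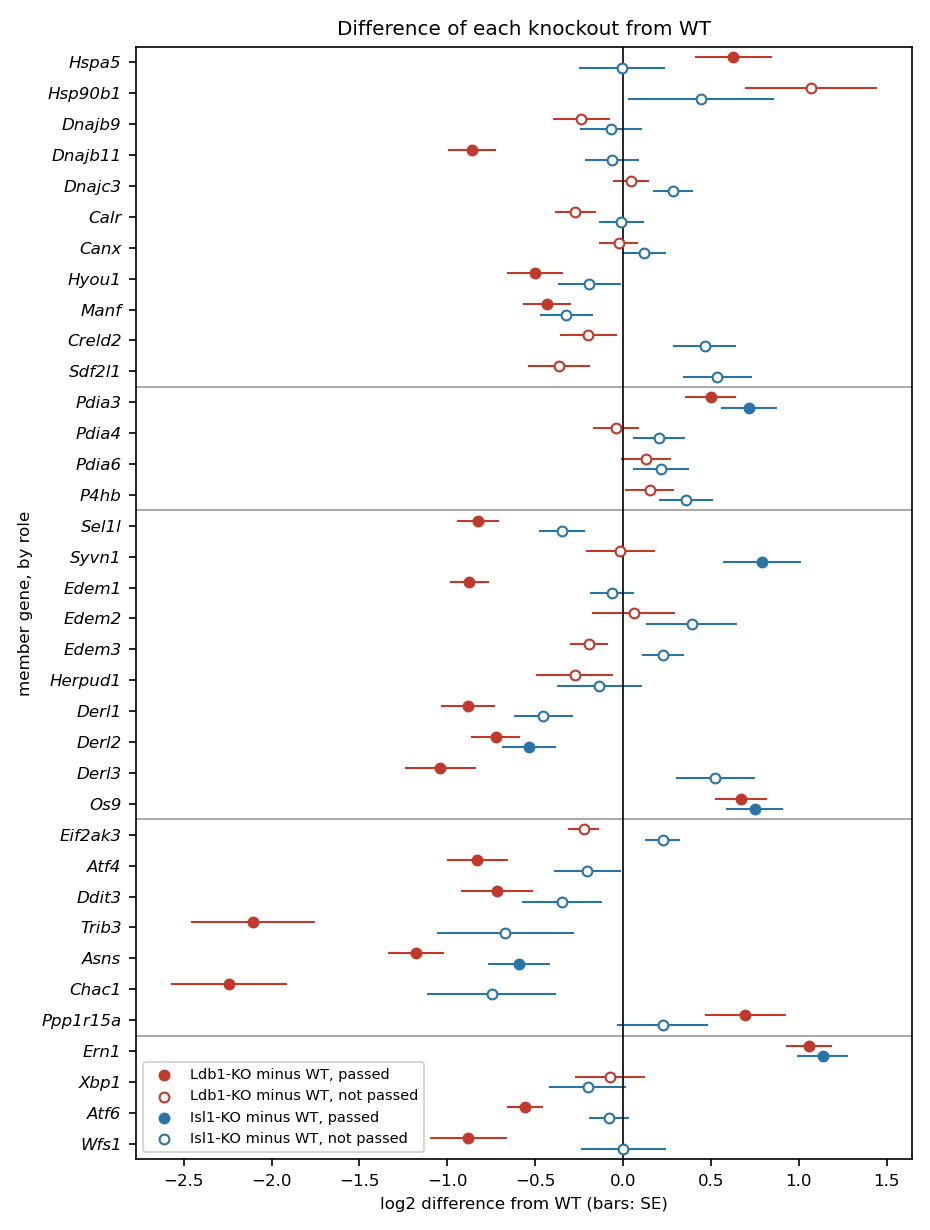
Log2 difference of each of the 36 genes from WT, with Ldb1-KO in red and Isl1-KO in blue, grouped by role; bars are the moderated SE, filled points passed the limma adjusted p of 0.05 and open points did not. Trib3 and Chac1 lie at -2.11 and -2.24 in Ldb1-KO, Ern1 lies near 1 in both knockouts, and Derl3, Creld2 and Sdf2l1 lie on opposite sides of 0 in the 2 knockouts.

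The knockouts were also compared with each other. In Ldb1-KO against Isl1-KO, 15 of the 36 genes were lower, 0 were higher and 21 did not pass, where 6.31% of all genes were lower and 6.96% higher. At an unadjusted limma p under 0.05, 1 was higher, and the authors' deposited table calls 0 higher. The median over the 36 genes was -0.32, against 0.02 over all genes. Derl3 differed by -1.57 (SE 0.20, adjusted p 2.21e-05), Edem1 by -0.81 (SE 0.11, adjusted p 4.75e-05), Dnajb11 by -0.80 (SE 0.14, adjusted p 0.000421) and Trib3 by -1.44 (SE 0.35, adjusted p 0.00843). For 6 of the 36 genes all Ldb1-KO libraries lay below all Isl1-KO libraries, against 2.29% of all genes, and for 0 above, against 2.49%. Derl3, Edem1, Dnajb11 and Trib3 kept their call under all 26 alternative settings. The other 11 were Creld2, Sdf2l1, Sel1l, Syvn1, Edem3, Eif2ak3, Atf4, Asns, Chac1, Atf6 and Wfs1, each of which missed the threshold under at least 1 setting. Sdf2l1, a component of BiP complexes, and Creld2, an ER stress-inducible protein, had not passed against WT in either knockout. They stood at 8.99 ± 0.36 and 9.03 ± 0.27 in Ldb1-KO (SD, n = 8), at 9.90 ± 0.24 and 9.69 ± 0.29 in Isl1-KO, and at 9.36 ± 0.41 and 9.23 ± 0.38 in WT (SD, n = 5 each). Between the knockouts they differed by -0.90 (adjusted p 0.00155) and -0.66 (adjusted p 0.00847). Eif2ak3 differed by -0.45 between the knockouts (SE 0.09, adjusted p 0.00157), and its 3 groups did not overlap in the order Ldb1-KO, then WT, then Isl1-KO except for WT replicate 4 at 9.26, which lay above Isl1-KO replicates 2 and 4 at 9.25 and 9.21. Leaving out Isl1-KO replicate 3 ended the calls of Atf4 (-0.55, adjusted p 0.0683) and Asns (-0.53, adjusted p 0.0568), and leaving out Isl1-KO replicate 5 ended that of Asns (-0.46, adjusted p 0.053). Without Ldb1-KO replicates 1, 3 and 4, Atf4 differed by -0.36 (adjusted p 0.104). With Isl1-KO replicates 1 to 3 left out, 6 of the 36 were lower. Age and tamoxifen dose differ between these groups and cannot be told apart from genotype.

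The wider pathway was followed through lists of further genes, described by counts. These lists were written with earlier results of these data known, so their counts are not independent support for the results above. Of 30 tested further targets of PERK and ATF4, 23 fell and 2 rose in Ldb1-KO against WT, with a median log2 difference of -0.95, where 11.0% of all genes tested fell and 10.6% rose. Without WT replicate 1 the falls numbered 22, and without Ldb1-KO replicates 1, 3 and 4 they numbered 21. Aldh1l2, a mitochondrial folate enzyme, had the largest fall of the list. Its values were 4.44 to 6.26 in Ldb1-KO, 7.45 to 8.54 in Isl1-KO and 8.99 to 9.83 in WT libraries, with no overlap between the 3 groups, and it differed in Ldb1-KO by -3.66 (SE 0.27, adjusted p 1.63e-09) and in Isl1-KO by -1.26 (SE 0.30, adjusted p 0.00603). Atf5, a transcription factor translated under the same control as ATF4, had values of 3.70 to 5.45 in Ldb1-KO, 5.49 to 6.94 in Isl1-KO and 7.46 to 7.99 in WT libraries, again with no overlap. It differed from WT in Ldb1-KO by -3.07 (SE 0.28, adjusted p 1.41e-08) and in Isl1-KO by -1.85 (SE 0.31, adjusted p 0.00017). Mars, the methionyl-tRNA synthetase, differed by -1.24 in Ldb1-KO (adjusted p 1.98e-07) and by -0.68 in Isl1-KO (adjusted p 0.00245). By enzyme class, a grouping made after the values were seen, all 9 aminoacyl-tRNA synthetases and all 6 serine and one-carbon enzymes of the list fell in Ldb1-KO, at differences of -1.24 to -0.45 and -3.66 to -1.07. Of the other classes made in the same way, 2 of 3 amino acid transport genes fell in Ldb1-KO, and 2 of 5 transcription factors fell and 1 rose. In Isl1-KO, 2 of the 9 synthetases, 4 of the 6 serine and one-carbon enzymes, 1 of the 3 transport genes and 1 of the 5 transcription factors fell.

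The 2 targets that rose in Ldb1-KO, named after their values were seen, were the stress factor Atf3 (1.69, SE 0.48, adjusted p 0.0147) and the mTOR inhibitor Ddit4 (0.79, SE 0.18, adjusted p 0.00211). The Atf3 call was lost with no filter on low values (adjusted p 0.0559) and with replicate number as a block (1.54, adjusted p 0.159). Over the shallower libraries alone both calls were lost (Atf3 1.51, adjusted p 0.265, and Ddit4 0.70, adjusted p 0.0803). In Isl1-KO against WT, 8 of the 30 fell and 0 rose by limma, with a median of -0.47, where 8.39% of all genes tested fell and 7.02% rose. At an unadjusted p under 0.05, 14 were lower and 0 higher, and the authors' deposited table calls 13 lower and 0 higher. All 8, which include Aldh1l2, Atf5 and Mars, had also fallen in Ldb1-KO. There 23 of the 30 fell, and both comparisons use the same 5 WT libraries, so the 2 counts are not independent. The falls in Isl1-KO numbered 7 to 10 over single left-out libraries, but 4 without Isl1-KO replicates 1 to 3, 3 in the deeper libraries alone and 4 in the shallower ones. Without those 3 replicates Aldh1l2 differed by -1.19 (adjusted p 0.0812) and Mars by -0.39 (adjusted p 0.172). In Ldb1-KO against Isl1-KO, 17 of the 30 were lower and 2 higher, where 6.31% of all genes were lower and 6.96% higher. The lower ones numbered 10 without Isl1-KO replicate 3, 7 without Isl1-KO replicates 1 to 3 and 9 in the shallower libraries alone.

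The other lists held fewer calls, and their counts are read against the same shares of all genes, 11.0% lower and 10.6% higher in Ldb1-KO and 8.39% lower and 7.02% higher in Isl1-KO. Leaving out single libraries moved several of these small counts by over 1.5 times. Of 31 genes of ER entry and N-glycosylation, 7 (22.6%) fell and 2 (6.45%) rose in Ldb1-KO, with a median of -0.13. Over single left-out libraries the falls numbered 5 to 9 and the rises 0 to 2. Among them, Srpr, the receptor of the signal recognition particle, fell by 0.82 (SE 0.11, adjusted p 6.67e-06). Serp1, which stabilizes membrane proteins during translocation, fell by 0.79 (SE 0.13, adjusted p 9.27e-05). In Isl1-KO 4 of the 31 (12.9%) rose and 1 (3.23%) fell, with the translocon component Sec63 at 0.62 (adjusted p 0.0141), the glucosidase Mogs at 0.79 (adjusted p 0.017) and Serp1 at -0.48 (adjusted p 0.0308). Each of these 3 calls could be ended by leaving out 1 library. Sec63 was lost without Isl1-KO replicate 1 (0.53, adjusted p 0.0517), Mogs without WT replicate 3 (0.65, adjusted p 0.0527), and Serp1 without any of Isl1-KO replicates 1, 2 or 3 or WT replicates 1, 2, 4 or 5 (-0.47 to -0.40, adjusted p 0.0563 to 0.0942). The rises numbered 2 to 4 and the falls 0 to 2 over single left-out libraries, with 2 rises without Isl1-KO replicate 1 or WT replicate 2. Of 27 further chaperone and oxidative folding genes, 4 (14.8%) rose and 1 (3.70%) fell in Ldb1-KO, while 2 (7.41%) rose and 4 (14.8%) fell in Isl1-KO. Over single left-out libraries these numbered 3 to 6 and 1 to 3 in Ldb1-KO, and 0 to 2 and 2 to 4 in Isl1-KO. The falls in Isl1-KO numbered 2 without WT replicate 1 or Isl1-KO replicate 2. The 1 that fell in Ldb1-KO was Ero1lb, the ER oxidase of β-cells. It stood at 10.88 to 11.69 in Ldb1-KO, at 11.43 to 13.31 in Isl1-KO and at 13.20 to 13.81 in WT libraries. It differed from WT in Ldb1-KO by -2.38 (SE 0.22, adjusted p 3.53e-08) and in Isl1-KO by -1.04 (SE 0.24, adjusted p 0.00516). Prdx4, an ER peroxidase, rose by 1.11 in Ldb1-KO (adjusted p 0.000451) and by 0.75 in Isl1-KO (adjusted p 0.0343). Its Ldb1-KO call was lost over the deeper libraries alone (0.63, adjusted p 0.0883). Its highest WT value, 7.28, was that of WT replicate 1, against 5.73 to 6.30 in the other WT libraries. Its Isl1-KO call was lost without any of Isl1-KO replicates 2, 4 or 5 or WT replicates 2 to 5 (0.62 to 0.77, adjusted p 0.0546 to 0.0945). Tmx3, a membrane-bound isomerase, fell in Isl1-KO (-0.58, adjusted p 0.00116; -0.36, adjusted p 0.125, without Isl1-KO replicates 1 to 3) and did not pass in Ldb1-KO (-0.22, adjusted p 0.136). It was higher in Ldb1-KO than in Isl1-KO by 0.36 (adjusted p 0.025), a call lost without Isl1-KO replicate 1, 2 or 3 (0.30 to 0.35, adjusted p 0.0653 to 0.087).

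Of 23 further ERAD genes, 5 (21.7%) fell and 2 (8.70%) rose in Ldb1-KO, while 3 (13.0%) fell and 2 (8.70%) rose in Isl1-KO. Without WT replicate 1, the library with the highest acinar mean, 2 fell in Ldb1-KO and 1 fell in Isl1-KO. The falls in Ldb1-KO also numbered 2 without WT replicate 5 and 3 without Ldb1-KO replicate 7. Those in Isl1-KO also numbered 1 without WT replicate 5 or Isl1-KO replicate 1 or 2. Erlec1, a lectin related to OS9, rose in Ldb1-KO by 1.01 (SE 0.13, adjusted p 2.94e-06) and in Isl1-KO by 0.98 (SE 0.14, adjusted p 3.85e-05). Its values of 9.36 to 10.24 in Ldb1-KO and 9.46 to 9.82 in Isl1-KO lay above all WT values of 8.44 to 8.93. Svip, an inhibitor of ERAD, fell in Ldb1-KO by 0.71 (SE 0.10, adjusted p 1.45e-05) and in Isl1-KO by 0.74 (SE 0.12, adjusted p 7.14e-05), with both knockouts below all WT libraries. Of 19 tested genes of IRE1 and ATF6 signalling, 5 (26.3%) fell and 1 (5.26%) rose in Ldb1-KO, while 0 fell and 3 (15.8%) rose in Isl1-KO by limma. The falls in Ldb1-KO numbered 3 without WT replicate 1, 4 or 5 or Ldb1-KO replicate 2, 3 or 4. The rises in Isl1-KO numbered 0 without WT replicate 1 or Isl1-KO replicate 2 or 3, and 1 without WT replicate 3 or Isl1-KO replicate 1. At an unadjusted p under 0.05, 2 were lower in Isl1-KO, and the authors' deposited table calls 1 lower. The COPII coat genes Sec24d and Sec31a, which carry cargo out of the ER, fell by 0.63 (adjusted p 0.000767) and 0.48 (adjusted p 0.00254) in Ldb1-KO. Both calls were lost over the shallower libraries alone (-0.60 and -0.37, adjusted p 0.0501 and 0.192). In Isl1-KO Sec24d and Sec31a differed by -0.02 and -0.20 and did not pass. Nfyc, a subunit of the factor that binds the CCAAT part of the ERSE, rose by 0.61 in Ldb1-KO (adjusted p 0.0129) and by 0.65 in Isl1-KO (adjusted p 0.025). Its Ldb1-KO call was lost over the shallower libraries alone (0.60, adjusted p 0.176). The Isl1-KO call of Nfyc was lost without WT replicate 1 (0.59, adjusted p 0.0666), Isl1-KO replicate 2 (0.51, adjusted p 0.0884) or Isl1-KO replicate 3 (0.53, adjusted p 0.0821). Creb3l2, an ATF6-related factor, rose by 0.54 in Isl1-KO (adjusted p 0.0245) and differed by 0.35 in Ldb1-KO (adjusted p 0.0881). Its Isl1-KO call was lost without any of Isl1-KO replicates 1, 2 or 3 or WT replicates 1 or 3, at differences of 0.42 to 0.53. With Isl1-KO replicates 1 to 3 left out, Nfyc differed by 0.19 and Creb3l2 by 0.14 (adjusted p 0.676 and 0.719).

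The printed promoter elements can be set beside these directions. Of the 9 genes with an ERSE, Derl3 fell in Ldb1-KO, Hspa5 rose, and Hsp90b1, Dnajc3, Calr, Canx, Creld2, Pdia6 and Syvn1 did not pass. Among the 15 genes that fell, 11 had a promoter sequence, of which 1 held an ERSE (Derl3), 1 an ERSE-II (Dnajb11) and 1 the C/EBP-ATF element (Chac1). With 1 mismatch allowed, an ERSE was found in 15 of the 32 member promoters, against 1.72% of all promoters, and in 4 of the 11. These matches describe the sequence only.

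The authors' own tests, in their deposited table, call 16 of the 36 genes lower and 3 higher in Ldb1-KO against WT at an FDR under 0.05, where the same table calls 11.0% of all genes tested lower and 8.24% higher. They share 15 lower and 2 higher calls with the values above and have 0 in the opposite direction. In Isl1-KO against WT the authors' deposited table calls 3 lower and 3 higher (9.33% and 5.54% of all genes tested), of which 2 and 3 are shared, and in Ldb1-KO against Isl1-KO 13 lower, all shared, and 0 higher (4.53% and 5.33% of all genes tested). Of the 36 genes, 1 was higher there at an unadjusted limma p under 0.05.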

How the data were processed

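The deposited gene table gives 1 log2 value per gene and library; its values share the same ladder (0 to 18.29) in all 18 libraries and were read as log2(quantile-normalized value + 1), an inference from the values. The authors' deposited log2 fold changes and FDR q-values, adjusted over 28644 tests, stand in the same table. For the authors' processing, the submitters' processing notes name HOMER, edgeR and mm9, with no role given. ChIP peak lists on mm9 were not analysed here, since no annotation of that build was used. Counts and absolute depth are unknown.

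The 13501 of 21913 genes whose unlogged mean was 1 or more entered 1 limma fit (version 3.58.1, R 4.3.3, trend and robust settings) of all 18 libraries, with Benjamini-Hochberg adjustment over all genes tested and a threshold of 0.05. SE is the moderated standard error. A library was called deeper where the 20th distinct value above 0 was under 20. In simulated data with known changes, 82% of 1-unit and 98% of 2-unit log2 changes were recovered for Ldb1-KO against WT. For Isl1-KO against WT these were 75% and 99%. The simulation drew normal values with equal spread in all groups and changed no low genes. It held no depth differences or coarse steps, so recovery in the real data may differ. The members and lists were chosen with earlier results of these data known. Named were all members, Ldb1, Isl1 and, per pathway list, up to 2 called genes with the smallest p in each comparison with WT. Alternatives covered the filter, pseudocount (10), fit settings, depth subsets, the replicate block and left-out libraries.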

Additional observations from a re-analysis of the deposited data

Results flagged for a closer look

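In 4 of the 108 groups of member values, 1 library stood apart from the rest by Dixon's criterion, which flags about 1 group in 20 by chance. Trib3 stood at 1 in Ldb1-KO replicate 4, with the nearest Ldb1-KO library at 2.54. Derl3 stood at 7.06 in Isl1-KO replicate 5, with the nearest at 6.43. That library had the highest acinar mean of its group, 4.91, and a link was not tested. Dnajc3 stood at 12.18 in Isl1-KO replicate 2, below the other Isl1-KO libraries, of which the nearest was at 12.56. Dnajb9 stood at 12.14 in WT replicate 4, above the other WT libraries, of which the nearest was at 11.44.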

How the results depend on the processing

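Of 864 member differences recomputed for Ldb1-KO against WT, 768 kept direction and side of the threshold. Direction changed for 1 called difference, Hspa5 at -0.0623 in the authors' deposited table. It also changed for 30 differences that passed neither in the main fit nor in the alternative. For Isl1-KO against WT 713 of 792 kept both, and for Ldb1-KO against Isl1-KO 862 of 936. In these, 0 called differences changed direction, but 38 and 25 that passed in neither fit did. The cause of the other changes was not tested. Small groups and unknown depth limit low genes.

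Members higher in Ldb1-KO than WT numbered 3 without Ldb1-KO replicates 1, 3 and 4 (a setting chosen after seeing the data), 3 in the authors' table, 3 without trend and robust settings and 3 with no filter. Members higher in Isl1-KO than WT numbered 2 without Isl1-KO replicates 1 to 3. Members lower in Isl1-KO than WT numbered 0 in that setting, in deeper libraries alone, in shallower libraries alone and with no filter, and 4 without Isl1-KO replicates 4 and 5. At an unadjusted p under 0.05 in the limma fit of all libraries they numbered 5. Members higher in Ldb1-KO than Isl1-KO numbered 2 without Isl1-KO replicates 4 and 5, 1 without Ldb1-KO replicates 1, 3 and 4, 1 in deeper and 1 in shallower libraries alone. Members lower there numbered 6 without Isl1-KO replicates 1 to 3.

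Over all genes, those higher in Isl1-KO than WT numbered 510 without Isl1-KO replicates 1 to 3, 589 in deeper and 528 in shallower libraries, and 628 with no filter. Those lower numbered 603, 627 and 526 in the first 3 of these settings. Higher in Ldb1-KO than Isl1-KO were 153 without Isl1-KO replicates 1 to 3, 1669 without replicates 4 and 5, and 373 in shallower libraries; lower were 183 and 1335 in the first 2. In shallower libraries, Ldb1-KO against WT gave 773 higher and 835 lower genes.

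Leaving out single libraries gave 1150 to 1529 genes higher and 1181 to 1552 lower in Ldb1-KO than WT, 676 to 1058 and 823 to 1200 in Isl1-KO than WT, and 561 to 1207 and 520 to 1031 in Ldb1-KO than Isl1-KO. Members numbered 3 to 5 higher and 13 to 16 lower in Ldb1-KO than WT. They numbered 3 to 6 and 0 to 3 in Isl1-KO than WT, and 0 to 1 and 13 to 16 in Ldb1-KO than Isl1-KO. The lowest count of genes differing between the knockouts came without Isl1-KO replicate 3.

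Replicate numbers are shared between groups in the labels. Deviations of same-numbered libraries correlated at -0.12 to 0.26, -0.17 to 0.16 and -0.08 to 0.13 in the 3 comparisons, 5 pairs each. The highest was that of replicate 4 in Ldb1-KO against WT, and differently numbered pairs were not computed for reference. With the replicate block, Ldb1-KO against WT gave 1632 higher and 1639 lower genes, with 1052 and 1102 in Isl1-KO than WT, and 720 and 768 in Ldb1-KO than Isl1-KO. Members numbered 5 and 15, 6 and 3, and 2 and 17 in the same order with the block. Ldb1-KO replicates 6, 7 and 8 have no same-numbered library in the other groups, so the block took them out of both Ldb1-KO comparisons. Its effect there cannot be told apart from that of leaving out these libraries. Equal counts hid changed calls in Ldb1-KO against WT: Ppp1r15a (0.46, adjusted p 0.16) and Ddit3 (-0.63, adjusted p 0.0572) were lost, and Hsp90b1 (1.59, adjusted p 0.001) and Sdf2l1 (-0.53, adjusted p 0.0177) were gained. Creld2, Derl1 and Sdf2l1 were gained in Isl1-KO against WT. In Ldb1-KO against Isl1-KO, Edem3 was lost and Derl1, Edem2, Hyou1, Hsp90b1 and Hspa5 were gained.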
